A study of Mus musculus with 6 samples.

Results

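The 10 core circadian clock genes Arntl, Clock, Npas2, Per1, Per2, Per3, Cry1, Cry2, Nr1d1 and Nr1d2 were followed across the lungs of 3 mouse genotypes. The genes were taken by symbol, each array probe being named by matching its transcript accession to RefSeq, and all 10 had at least 1 probe. They were chosen with their levels in all 3 genotypes already known, so their values are given as a description and without a test. Of the 10 genes, 9 entered the fit over 12968 genes, and Npas2 did not because none of the 6 arrays gave its only probe a signal well above background. The study measured lung gene expression in mice that overexpress T-bet in T cells, a model linked to pulmonary alveolar proteinosis, in which surfactant fills the air spaces. Total lung RNA was hybridised to 6 single-colour Agilent arrays, 2 per genotype, all from the C57BL/6 background. The control group was labelled WT, and the other groups hCD2-T-bet tg/wt and hCD2-T-bet tg/tg. Control elements of the human CD2 gene (hCD2) are used to direct a transgene to T cells, so the lung tissue measured here also holds many other kinds of cell. The labels used here give no hour of day, age or sex, and do not say that the arrays of a group came from separate animals, so the errors and p-values measure only the spread between these samples.

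The circadian clock is a feedback loop of transcription that runs in nearly every cell, lung cells included. BMAL1, the product of Arntl, pairs with CLOCK or with its relative NPAS2 and switches on genes that carry E-box sequences, among them the Per, Cry and Nr1d genes. PER and CRY proteins then block the BMAL1 pair, and the nuclear receptors REV-ERB alpha (Nr1d1) and REV-ERB beta (Nr1d2) repress Arntl through ROR elements, where the ROR receptors activate. A second set of outputs, the activators DBP, TEF and HLF and the repressor NFIL3, acts on D-boxes. Because the phases of Arntl and of the Nr1d, Per and Dbp genes differ over the day, their levels depend on when a tissue is taken.

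The stretches shown here are those around clock motifs in the promoters of these genes, since E-boxes, D-boxes and ROR elements are the sequences through which the loop is known to act. The promoter windows were RefSeq sequence on GRCm38.p6, 300 bases long and reaching from 250 bases before a gene's start to 50 after it. Of the 10 genes 9 matched an entry. Per2 had none, so its promoter was not searched. The motifs searched on both strands were the E-box CACGTG, its variant CACGTT, the D-box TTATGTAA and the ROR element letters GTAGGTNA. The last of these was written down after both Arntl elements had been seen, as the letters they share. None of the matches overlapped another. Capitals mark the motif, and AACGTG is CACGTT read on the opposite strand.
Arntl stretch 1, chr7:113207493-113207522, plus strand: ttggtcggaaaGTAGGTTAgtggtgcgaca
Arntl stretch 2, chr7:113207529-113207558, plus strand: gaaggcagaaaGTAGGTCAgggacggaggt
Per1, chr11:69098756-69098815, plus strand: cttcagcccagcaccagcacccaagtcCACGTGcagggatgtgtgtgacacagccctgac
Per3, chr4:151044789-151044897, minus strand: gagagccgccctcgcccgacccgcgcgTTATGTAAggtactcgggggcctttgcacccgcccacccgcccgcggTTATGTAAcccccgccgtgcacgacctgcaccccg
Cry1, chr10:85185082-85185160, minus strand: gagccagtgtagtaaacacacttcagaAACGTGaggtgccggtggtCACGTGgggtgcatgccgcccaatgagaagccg
Cry2, chr2:92434203-92434262, minus strand: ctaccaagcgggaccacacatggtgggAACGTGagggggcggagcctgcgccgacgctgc
Nr1d1, chr11:98775378-98775432, minus strand: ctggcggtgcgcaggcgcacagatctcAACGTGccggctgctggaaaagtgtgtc

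In these windows Arntl held the ROR letters in 2 places, the first base of the match lying 7 bases before and 30 bases after the later of its 2 listed starts. The ROR letters occurred in 2.14% of 32851 promoter windows. The E-box CACGTG was found for Per1 and Cry1 and in 7.15% of all windows, and its variant CACGTT for Cry1, Cry2 and Nr1d1 and in 4.68%. Per3 held the D-box in 2 places, against a match in 0.938% of all windows. A match describes the letters in the window and is not evidence of a bound site.

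Array brightness, taken as the 75th percentile of the processed signal, ranged from 794 to 1204 intensity units, and the share of probes well above background from 62.0% to 66.8%. Slide 1 held the WT and tg/tg arrays and slide 2 the tg/wt arrays, so in any comparison with tg/wt slide and genotype cannot be told apart, while tg/tg against WT lies within 1 slide. Tbx21, which encodes T-bet, followed the labels: the WT arrays read -0.70 and -0.71 on the log2 scale, the tg/wt arrays 1.30 and 1.34 and the tg/tg arrays 3.25 and 3.26. The lung markers Scgb1a1 (club cells) and Pecam1 (endothelium) were well above background on all 6 arrays, and the probe for Sftpc (surfactant protein C) was saturated on all of them. All 10 T cell markers and all 8 tested monocyte and interstitial macrophage markers rose in tg/tg against WT, and all 10 endothelial, 7 airway, 8 heart muscle and 7 fat markers fell (limma, adjusted p under 0.05). At this threshold 33.8% of all genes rose and 40.8% fell. The summed linear level of the T cell markers went from 4.25 to 4.46 times the array's 75th percentile in WT to 47.0 to 47.6 in tg/tg, that of the monocyte and macrophage markers from 13.1 to 13.7 to a range of 196 to 201, and that of the endothelial markers from 361 to 362 down to 150 to 156. Heart muscle markers went from 232 to 234 down to 12.1 to 12.6, and fat markers from 32.8 to 34.0 down to 4.53 to 4.54. In WT 2 of the 10 T cell markers were not well above background, and in tg/tg 2 of the 7 fat markers. The T cell marker Trat1 was well above background on only 2 arrays and entered the fit through tg/tg, where it was high. All 8 neutrophil and 7 proliferation markers also rose and 7 of 8 alveolar macrophage markers fell, while alveolar type 2 markers were split (3 rose and 2 fell of 8). Of 6 tested alveolar type 1 markers 1 rose and 5 fell. Of 9 fibroblast and smooth muscle markers 3 rose and 6 fell, and of 6 skeletal muscle markers 5 fell. In whole-lung RNA fewer cells of a type and less RNA per cell cannot be told apart, and the part these shifts in cell markers play in the clock values was not tested.

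Across the 9 measured clock genes, the tg/tg arrays differed from the WT arrays without overlap in every case. Arntl, Clock and Cry1 were higher in tg/tg, and Per1, Per2, Per3, Cry2, Nr1d1 and Nr1d2 were lower. Differences ran from 6.30-fold higher for Arntl to 3.62-fold lower for Nr1d1, with a median log2 difference of -0.84 against -0.05 over all 12968 genes. Groups without overlap were common: 47.7% of all genes were lower and 40.2% higher in tg/tg than in WT by that measure. Since the genes were chosen on these levels, nothing is read from their count of 6 lower and 3 higher. Levels are log2 of the processed signal relative to the array's 75th percentile, from the gene's brightest probe unless another is named.

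**Figure D1:**
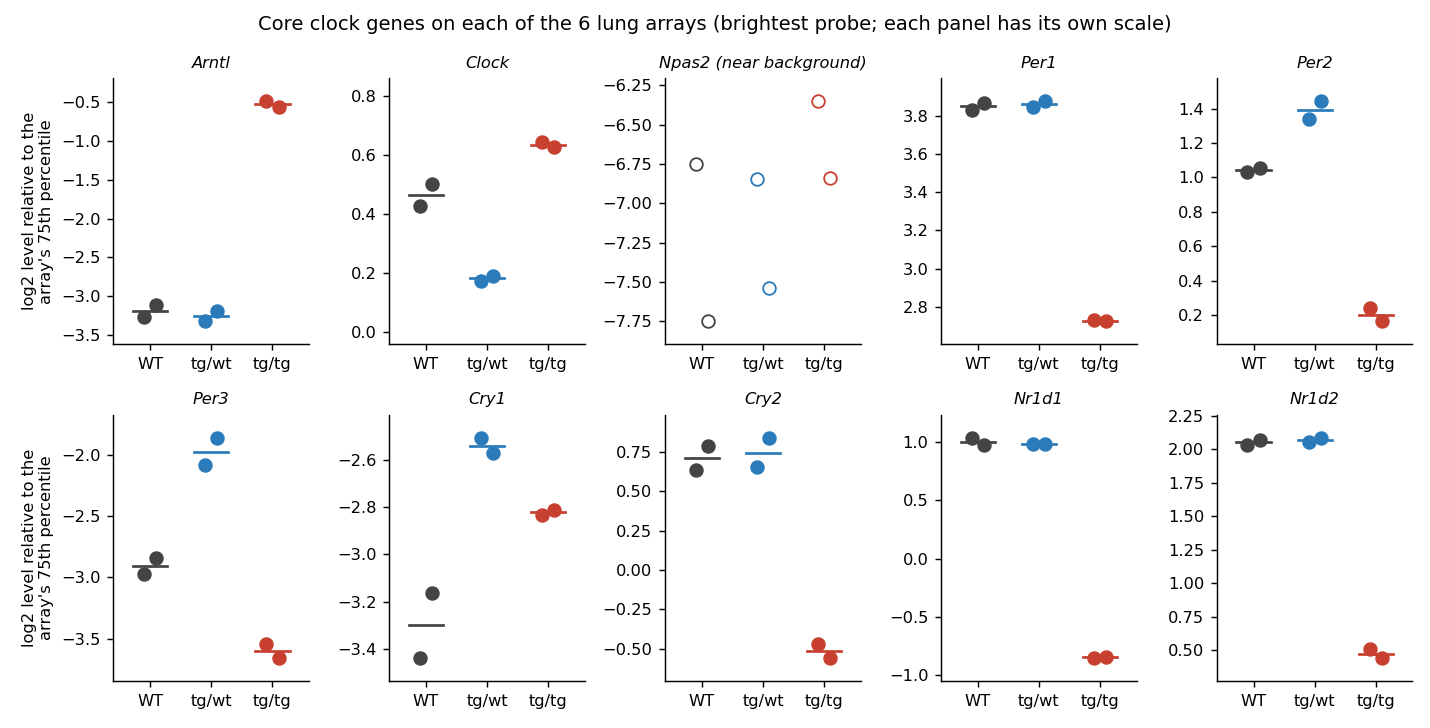
Each panel plots the log2 level of 1 core clock gene, relative to the array's 75th percentile, on the 2 WT, 2 tg/wt and 2 tg/tg arrays (points) with the group mean (line), each panel on its own scale. Arntl stands out upward in tg/tg (-0.49 and -0.57 against -3.27 and -3.11 in WT) and Nr1d1 downward, while open points for Npas2 mark a probe not well above background.

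Arntl, which encodes the activator BMAL1, had log2 levels of -3.27 and -3.11 on the WT arrays, -3.32 and -3.19 on the tg/wt arrays and -0.49 and -0.57 on the tg/tg arrays. Both tg/tg arrays were far above the other 4, and the WT and tg/wt arrays overlapped. The difference of tg/tg from WT was 2.66 on the log2 scale (SE 0.0771, n = 2 per group), or 6.30-fold. Of the 12968 genes, 357 had a higher difference. Against tg/wt the tg/tg arrays were higher by 2.73, or 6.61-fold. Normexp background correction gave a smaller difference from WT of 1.81, in the same direction.

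Clock encodes the partner of BMAL1, and its brightest probe differed little between groups. The WT arrays read 0.43 and 0.50, the tg/wt arrays 0.17 and 0.19 and the tg/tg arrays 0.64 and 0.62, so that the order was tg/wt, WT, tg/tg with no overlap between neighbours. The tg/tg arrays were 1.13-fold above WT (log2 0.17, SE 0.0393) and the tg/wt arrays 1.22-fold below it. A second probe gave -2.31 and -2.10 on WT arrays, -2.26 and -2.32 on tg/wt arrays and -1.97 and -1.83 on tg/tg arrays, a tg/tg difference from WT of 0.30 with WT and tg/wt overlapping. The third Clock probe was well above background on the 2 tg/tg arrays and on no WT or tg/wt array. Its level in tg/tg was at least 2.17-fold higher than that of WT, as a bound set by the lowest signal well above background.

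Npas2, which can stand in for CLOCK, had log2 levels of -6.75 and -7.75 on the WT arrays, -6.85 and -7.54 on the tg/wt arrays and -6.35 and -6.84 on the tg/tg arrays. None was well above background, so no fold is given.

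Per1 encodes a PER repressor that is also induced acutely by hormones and stimuli. WT levels of 3.83 and 3.87 compared with 3.85 and 3.88 for tg/wt and with 2.73 and 2.72 for tg/tg. WT and tg/wt overlapped and both tg/tg arrays lay below them, by 2.18-fold against WT (log2 difference -1.12, SE 0.0342).

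Per2 showed a different order, being highest in tg/wt. Levels were 1.03 and 1.05 on the WT arrays, 1.34 and 1.44 on the tg/wt arrays and 0.24 and 0.16 on the tg/tg arrays. The tg/tg arrays were 1.79-fold below WT (log2 difference -0.84, SE 0.0512), the tg/wt arrays 1.27-fold above it, and no 2 groups overlapped. A dimmer second probe gave -3.14 and -3.42 on WT arrays, -3.17 and -2.77 on tg/wt arrays and -3.05 and -4.04 on tg/tg arrays, with every pair of groups overlapping. The mean of both probes differed by -0.55 between tg/tg and WT.

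Per3, a PER relative that is dispensable for the core loop and a strongly rhythmic readout of it, had the widest tg/wt difference of the 9 genes. Its WT arrays read -2.97 and -2.84, its tg/wt arrays -2.08 and -1.86 and its tg/tg arrays -3.54 and -3.66, with no overlap. The tg/wt arrays were 1.91-fold above WT (log2 0.94, SE 0.0955), with 212 genes showing a higher difference, and the tg/tg arrays were 1.62-fold below it (-0.69). From tg/wt to tg/tg the difference was -1.63, or 3.09-fold. Normexp correction brought the tg/tg difference from WT to -0.35 and the tg/wt difference to 0.56.

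Cry1 encodes the CRY repressor that acts late in the cycle, and was the one Per or Cry gene higher in tg/tg than in WT. The levels were -3.44 and -3.16 on WT arrays, -2.51 and -2.57 on tg/wt arrays and -2.83 and -2.81 on tg/tg arrays. No groups overlapped, WT being lowest and tg/wt highest. The difference from WT was 1.69-fold in tg/wt (log2 0.76) and 1.39-fold in tg/tg (log2 0.48, SE 0.0962 for each). A second probe kept this order, with differences of 0.47 in tg/wt and 0.23 in tg/tg. Normexp correction brought the tg/tg difference to 0.20 and the tg/wt difference to 0.32.

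Cry2, the other CRY repressor, went the opposite way to Cry1 in tg/tg. WT levels of 0.63 and 0.79 overlapped with tg/wt levels of 0.65 and 0.84, and the tg/tg arrays stood at -0.47 and -0.56. The tg/tg arrays were 2.34-fold below WT (log2 difference -1.22, SE 0.0886). The second Cry2 probe, with levels of -3.37 and -3.50 in WT and -3.92 and -4.09 in tg/tg, was 1.48-fold lower, also without overlap.

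Nr1d1 encodes REV-ERB alpha, the repressor that acts on Arntl. The WT arrays gave 1.04 and 0.97, with 0.99 on both tg/wt arrays and -0.85 on both tg/tg arrays. The tg/wt arrays lay between the WT arrays, and both tg/tg arrays were lower, by 3.62-fold against WT (log2 difference -1.85, SE 0.0367). In the whole fit 551 genes had a lower difference. A second, dimmer probe had -2.69 and -2.76 on WT arrays, -2.80 and -2.67 on tg/wt arrays and -4.20 and -4.28 on tg/tg arrays, a difference of 2.86-fold.

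Nr1d2, encoding the related receptor REV-ERB beta, read 2.03 and 2.07 on the WT arrays, 2.06 and 2.08 on the tg/wt arrays and 0.50 and 0.44 on the tg/tg arrays. WT and tg/wt overlapped, and the tg/tg arrays were 2.98-fold below WT (log2 difference -1.58, SE 0.0395). Only 1 probe measured it.

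**Figure D2:**
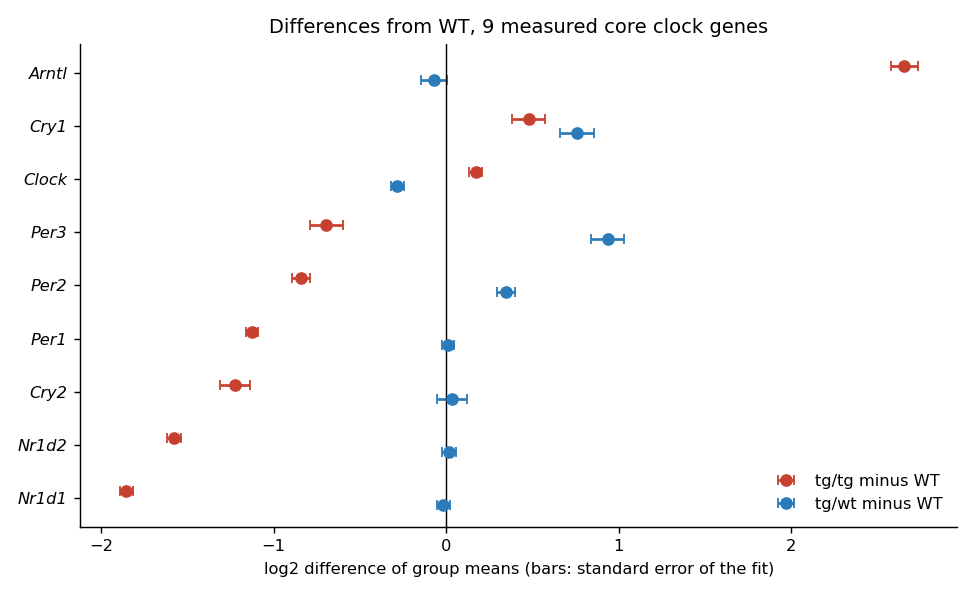
Points give the log2 difference of the group means from WT for the 9 measured core clock genes in tg/tg (red) and tg/wt (blue), with the standard error of the fit as bars, both sets sharing the WT arrays. The tg/tg points run from 2.66 for Arntl to -1.85 for Nr1d1, while the tg/wt points of Arntl, Per1, Cry2, Nr1d1 and Nr1d2 lie within 0.1 of 0.

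The tg/wt lungs lay near WT for Arntl and for both Nr1d genes. Against WT, Per2, Per3 and Cry1 were higher without overlap, Clock was lower, and Arntl, Per1, Cry2, Nr1d1 and Nr1d2 overlapped, with log2 differences of -0.07, 0.01, 0.03, -0.02 and 0.02. The median over the 9 genes was 0.02, against -0.0050 over all genes. By the same measure 34.9% of all genes were higher and 37.5% lower in tg/wt than in WT. The number of genes without overlap, 4, was 8 without WT replicate 2 and 7 without tg/wt replicate 1. Leaving out an array can only keep or raise this number. Beside these values, the summed level of the neutrophil markers was 54.1 to 55.6 in WT and 14.7 to 15.1 in tg/wt, and that of the heart muscle markers 113 to 114 in tg/wt. T cell markers summed to 9.02 to 9.03 in tg/wt (8 of 10 called higher than in WT) and monocyte and macrophage markers to 21.5 to 22.0 (7 of 8), all 7 proliferation markers were called higher and 6 of 7 fat markers lower. By the same limma calls 13.4% of all genes were higher and 14.6% lower in tg/wt than in WT. The part of these cell markers in the tg/wt values was not tested. In tg/tg against tg/wt, Arntl and Clock were higher and the other 7 genes lower without overlap (median -1.19, all genes -0.05), where 40.1% of all genes were higher and 47.4% lower. The comparisons with WT share the WT arrays, and those with tg/wt share the tg/wt arrays.

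Because each array carries all the clock probes, the ratio of an activator to a repressor can be followed within an array, free of the scaling between arrays. Relative to the WT mean, the log2 ratio of Arntl to Nr1d1 was -0.11 and 0.11 on the WT arrays, -0.12 and 0.01 on the tg/wt arrays and 4.55 and 4.47 on the tg/tg arrays. The ratio of Arntl to Per2 was -0.07 and 0.07 on WT arrays, -0.43 and -0.40 on tg/wt arrays and 3.50 on both tg/tg arrays. For Arntl over Clock, the pair that forms the activator, it was -0.04 and 0.04 on WT arrays, 0.16 and 0.27 on tg/wt arrays and 2.51 and 2.46 on tg/tg arrays. These ratios show unequal change of the probes and follow from the levels already given.

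**Figure D3:**
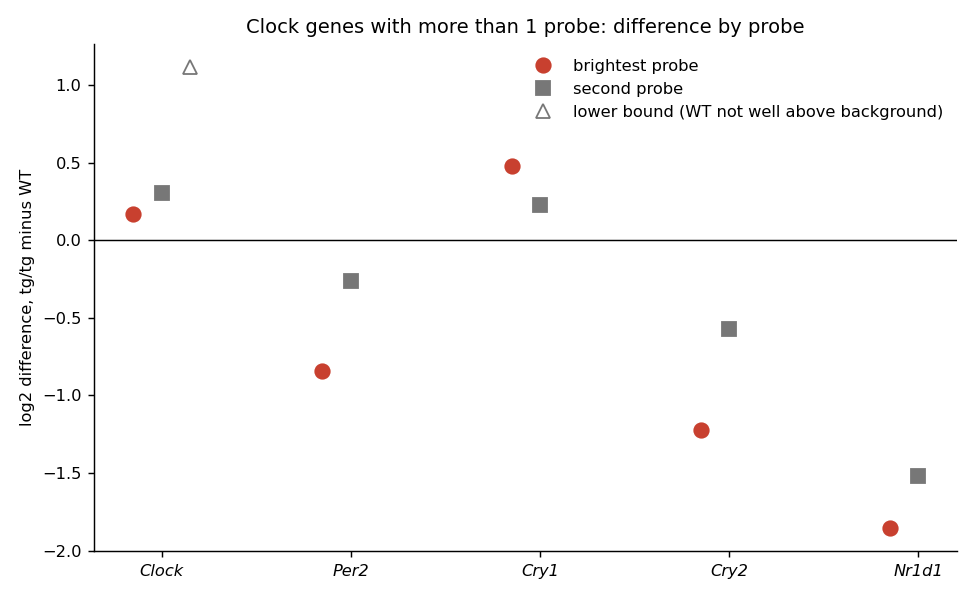
Log2 differences of tg/tg from WT are plotted by probe for the 5 core clock genes with more than 1 probe, red circles marking the brightest probe and grey squares the second. Both probes lie on the same side of 0 for Per2 (-0.84 and -0.26), Cry1, Cry2, Nr1d1 and Clock, and the open triangle is a lower bound for the Clock probe that was not well above background in WT.

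Genes that regulate the clock loop from outside these 10 were mixed in direction in tg/tg. Of 17 such regulators, 15 were tested, and 3 rose and 8 fell against WT with a median log2 difference of -0.22 (limma, Benjamini-Hochberg adjusted p under 0.05). In the fit over all genes 33.8% rose and 40.8% fell at this threshold, so the list's shares have to be read beside a high background. This and the other gene lists were chosen with earlier results of these data known, so their counts and p-values are a description. Ciart, which encodes a repressor of the BMAL1 pair, fell 4.81-fold (log2 difference -2.27, SE 0.0679, limma adjusted p = 9.04e-06), from 0.03 and 0.14 in WT to -2.18 on both tg/tg arrays. Bhlhe40, encoding the E-box repressor DEC1, rose 2.35-fold (log2 1.24, limma adjusted p = 8.99e-06), while its relative Bhlhe41 (DEC2) fell (-0.73). Rora, which encodes a ROR receptor that activates Arntl, fell in tg/tg by 0.47 on the log2 scale (limma adjusted p = 2.91e-04). Csnk1e, encoding the kinase that marks PER for degradation, fell by 0.91 and the deacetylase gene Sirt1 by 0.92. Csnk1d, encoding the related kinase, had a difference of -0.17 from its brightest probe and of 0.32 from the mean of its probes, both past the threshold in limma.

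Of 12 output genes of the clock, 11 were tested, 7 fell and 2 rose in tg/tg against WT, beside 40.8% and 33.8% of all genes. Their median log2 difference was -1.39 against -0.05 over all genes. As with the regulators, this list was chosen with earlier results known, and its p-values are a description. The D-box activators fell together: Dbp fell by 3.02 on the log2 scale, Hlf by 2.25 and Tef by 1.73 (limma adjusted p = 1.03e-06, 4.06e-06 and 4.31e-06). Dbp read 6.53 and 6.50 on the WT arrays, 6.54 and 6.50 on the tg/wt arrays and 3.47 and 3.51 on the tg/tg arrays. Nfil3, which encodes the repressor that competes with these activators for D-boxes, rose 6.78-fold, from -0.53 and -0.46 in WT to 2.28 and 2.26 in tg/tg (log2 2.76, limma adjusted p = 2.01e-06). Nampt, encoding the enzyme that limits NAD synthesis, rose 3.80-fold (log2 1.93, limma adjusted p = 2.79e-06). Usp2 (a deubiquitinase), Tsc22d3 (GILZ, a glucocorticoid-induced protein) and Klf9 (a Krüppel-like factor) fell by 2.02, 1.53 and 1.39 on the log2 scale, and Wee1, a kinase gene of the cell cycle, by 0.86. Nfil3 and Nampt are also expressed in myeloid and lymphoid cells. In the same arrays T cell, monocyte and neutrophil markers rose and 7 of 8 alveolar macrophage markers fell. The part of these cells in the Nfil3 and Nampt values was not tested.

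**Figure D4:**
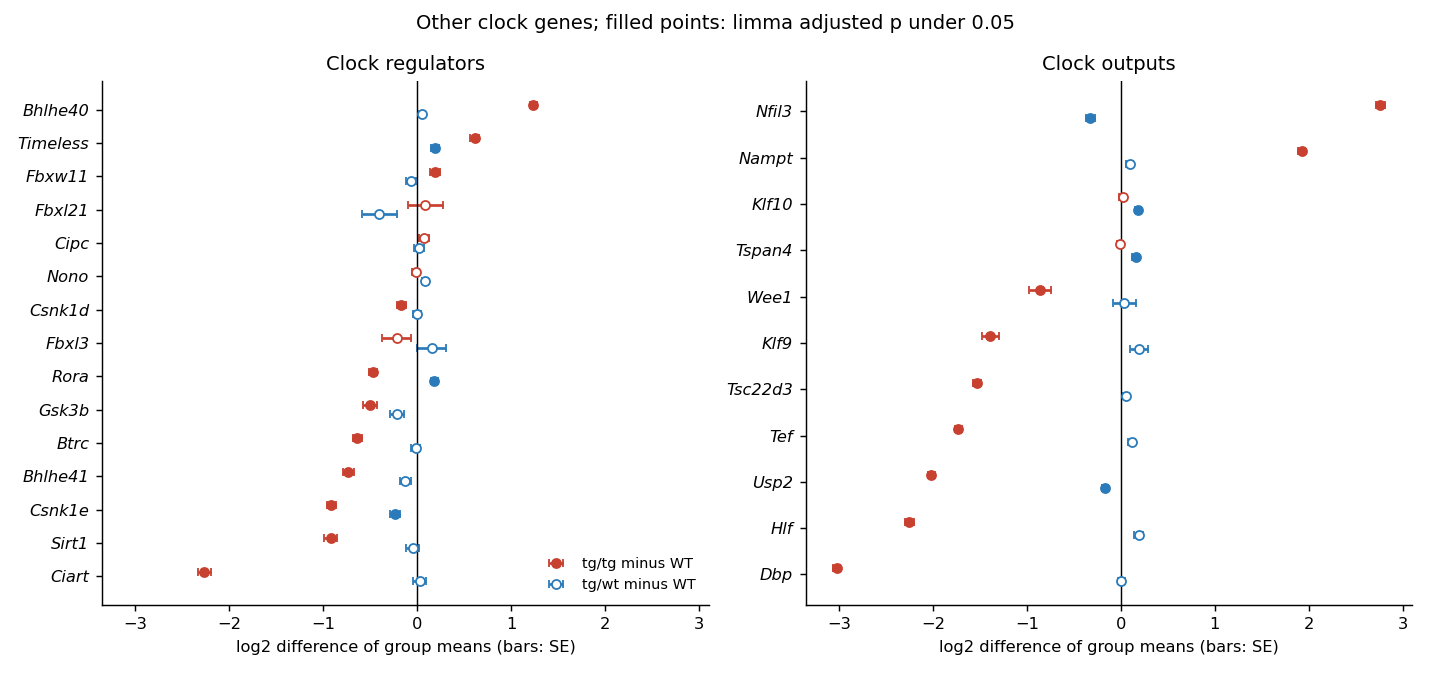
Log2 differences from WT with their standard errors are plotted for the 15 tested clock regulators (left) and 11 tested clock outputs (right), tg/tg in red and tg/wt in blue, filled where the limma adjusted p was under 0.05. Dbp lies lowest at -3.02 and Nfil3 highest at 2.76 in tg/tg, while the tg/wt points lie between -0.40 and 0.19.

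In tg/wt against WT, 7 of the 26 tested regulators and outputs passed the threshold, where 13.4% of all genes rose and 14.6% fell. Rora, Timeless, Tspan4 and Klf10 rose and Csnk1e, Nfil3 and Usp2 fell. The differences were small: Rora rose by 0.18 (limma adjusted p = 0.0304) and Nfil3 fell by 0.32 (limma adjusted p = 0.0112), each opposite to its direction in tg/tg. Without WT replicate 1 the count was 1, without WT replicate 2 it was 1, without tg/wt replicate 1 it was 1, and without tg/wt replicate 2 it was 0, with 7 genes at an unadjusted limma p under 0.05. With the dim-probe filter removed it was also 1. Against tg/wt, 5 of these 26 genes were higher and 17 lower in tg/tg, where 34.0% of all genes were higher and 40.2% lower.

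The genes whose levels tracked Arntl and Nr1d1 most closely over the 6 arrays were found by the root mean square difference of log2 levels, each gene centred on its own mean. For Arntl these were Pirb (0.0395), Lrg1 (0.0665), Ctsk (0.0681), Cd14 (0.0735) and Tgm1 (0.0785), with tg/tg differences from WT between 2.55 and 2.83. Pirb, an inhibitory receptor, and Cd14, an endotoxin co-receptor, are myeloid genes, and Ctsk encodes a cathepsin. For Nr1d1 they were Sema6a (0.0332), Mfap2 (0.0391), Aldh2 (0.0401) and Il17d (0.0407), with differences between -1.85 and -1.81. Aldh2 encodes an aldehyde dehydrogenase and Mfap2 a microfibril protein. Likeness over 6 arrays of 3 genotypes is a description, since many genes have a step at tg/tg.

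**Figure D5:**
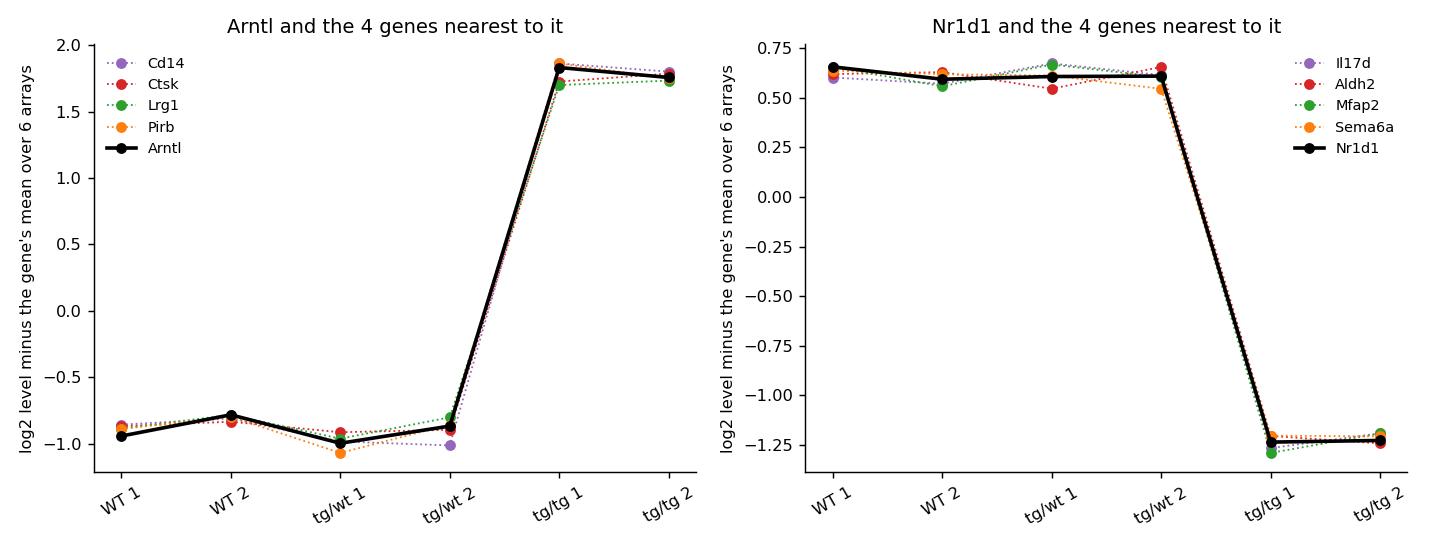
Log2 levels centred on each gene's own mean are plotted over the 6 arrays for Arntl (left, black) and Nr1d1 (right, black) with the 4 genes nearest to each (dotted), lines only joining the points of a gene. All 10 genes are near level over the WT and tg/wt arrays and step at tg/tg, upward by 2.66 for Arntl and downward by 1.85 for Nr1d1.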

How the data were processed

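Per the labels' protocols, lung RNA was labelled with Cy3 for single-colour arrays. Per the file headers, the deposited intensity values were extracted with Feature Extraction 9.5.3.1 on an mm7 grid, while the submitters' processing notes name version 9.1; they are linear intensity, background-subtracted by the authors' software and unscaled between arrays. The deposited series table equals the scanner files' background-subtracted intensity. Here log2 of the processed signal was centred on each array's 75th percentile; control spots and 138 to 187 outlier-marked spots per array were left out. Of 41174 probes 22951 matched 16358 RefSeq symbols. Probes well above background on at least 2 arrays entered, the brightest per gene, which gave 12968 genes. All 6 arrays entered 1 limma fit (limma 3.58.1, R 4.3.3, data.table, version 1.17.8, lmFit and eBayes, 3 residual degrees of freedom), p-values being Benjamini-Hochberg adjusted over all genes at 0.05. Arrays of a group correlated at 0.996 to 0.997 across genes, with a median absolute log2 difference of 0.0459 to 0.0673, and each counted as a replicate as labelled; their number limits the precision. The fit was tested on simulated data.

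The clock genes and gene lists were chosen with earlier results of these data known. Named beyond the 10 are list members called at an absolute log2 difference of at least 1 in tg/tg against WT, or called in opposite directions in tg/wt and tg/tg against WT, up to 2 per other list, the 5 nearest genes to Arntl and to Nr1d1, Tbx21 and 3 lung markers. Timeless, Fbxw11, Tspan4, Klf10, Csnk1d, Csnk1e, Sirt1, Bhlhe41, Wee1 and Usp2 in tg/wt were named after their values were seen. A list gene and a gene among the nearest are not reported here. Normexp correction (offset 50) used the median signal. Alternatives covered scaling, background, filter, probe choice, samples fitted, variance trend, a replicate block and leaving out each array. Figures used Python 3.11.15 and matplotlib 3.10.9.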

Additional observations from a re-analysis of the deposited data

Results flagged for a closer look

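For 3 of the core clock genes both tg/wt arrays lay on one side of both WT arrays and both tg/tg arrays on the other. The difference between the 2 effects, which is tg/tg minus tg/wt on the log2 scale, was 0.45 for Clock, -1.19 for Per2 and -1.63 for Per3; it was not tested for these genes because they were chosen on their levels. The same held for 7 regulators and outputs. These were picked by that rule on the same arrays, and the rule already sets tg/tg apart from tg/wt. Their limma p-values for tg/tg against tg/wt are therefore a description and not a test of the pattern. The difference was -0.65 for Rora (limma adjusted p = 9.54e-05), 0.26 for Fbxw11 (0.0068), -1.85 for Tef (4.46e-06) and -2.44 for Hlf (3.98e-06). It was 3.09 for Nfil3 (2.04e-06), -1.58 for Tsc22d3 (6.66e-06) and -1.58 for Klf9 (8.85e-05). For Fbxw11, Tef, Hlf, Tsc22d3 and Klf9 the tg/wt difference from WT itself did not pass the threshold. In all 10 cases slide and the tg/wt genotype cannot be told apart. Groups without overlap were common, with 47.7% of all genes lower and 40.2% higher in tg/tg than in WT. In tg/wt against WT these shares were 37.5% and 34.9%. The share of all genes that went opposite ways was not counted, so nothing is read from these counts of genes.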

How the results depend on the processing

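All 9 measured clock genes kept the sign of their tg/tg difference from WT over 18 settings and of that from tg/wt over 17. Most of these settings could not turn a sign. The variance trend, the replicate block and leaving out arrays of the third group could not change a difference of group means. Nor could the slide setting, fitting only the groups compared, or the other filters on dim probes. Leaving out an array of the groups compared could not turn a sign, because the groups did not overlap. That leaves scaling, background, the deposited series values and the mean of a gene's probes. In tg/wt against WT the signs of Arntl, Per1, Cry2, Nr1d1 and Nr1d2, all with differences under 0.1, turned in 1 to 3 of 17 settings. No scaling moved the median of all genes by 0.1. Leaving out each array in turn gave 9 clock genes without overlap in tg/tg against WT and against tg/wt. This was fixed in advance, because leaving out an array cannot make separate groups overlap. In tg/wt against WT the count was 4 to 8, and for the same reason it could only stay or rise. The same runs gave 18 to 20 regulators and outputs called in tg/tg against WT, 20 to 23 against tg/wt and 0 to 7 in tg/wt against WT, and 1397 to 3472 genes called in tg/wt against WT, against 3619 with every array. Without the filter on dim probes 2408 genes and 1 regulator or output were called in tg/wt against WT. The mean of a gene's probes turned Csnk1d to 0.32 in tg/tg against WT and to 0.21 against tg/wt; the cause was not tested. Replicate numbers did not pair the arrays (correlations of deviations 0.13, -0.05 and -0.05). With replicate number as a block 9447, 2614 and 9363 genes were called in tg/tg against WT, tg/wt against WT and tg/tg against tg/wt, and 3 regulators or outputs in tg/wt against WT. No slide term was fitted. The slide setting kept only the arrays of slide 1 for tg/tg against WT. It repeated the fit of those 2 groups alone, with 9504 genes called in each. Among all calls of single regulators, outputs and Tbx21 recomputed, 1306 stayed on their side of the threshold, 58 were lost, 35 gained and 2 (Csnk1d) turned. The smallest tg/tg differences of Arntl, Per3, Cry1, Nr1d1 and Nr1d2 from WT came with normexp background correction (1.81, -0.35, 0.20, -1.56 and -1.48).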

Other observations

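Of 9 co-factors and partners of the nuclear receptors tested, 7 fell in tg/tg against WT, beside 40.8% of all genes, with a median log2 difference of -0.55 (all genes -0.05). They include Ppara, the fatty acid receptor whose gene the clock drives (-1.59, limma adjusted p = 1.35e-05), and Ppargc1a, a co-activator of metabolic genes (-1.0, limma adjusted p = 3.93e-04). In tg/wt against WT 2 of the 9 rose and 2 fell, the latter being Ppara (-0.62) and Ppargc1a (-0.69). Beside them, 13.4% of all genes rose and 14.6% fell. Heart muscle and fat markers fell in both comparisons (8 of 8 and 6 of 7 in tg/wt), and their part in these values was not tested.

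Genes that respond to glucocorticoids, which can set clock phase, did not share a direction in tg/tg against WT. Of 9 tested, Tsc22d3 and Klf9 of the clock outputs among them and Per1 left out, 4 rose and 4 fell in tg/tg against WT, beside 33.8% and 40.8% of all genes. Mt2, encoding a metallothionein, rose by 2.17 and Cdkn1a, encoding the cell cycle inhibitor p21, by 2.0 (limma adjusted p = 1.53e-06 and 1.43e-05). Among 11 immediate early genes 5 rose and 5 fell, led by Egr2 (1.91) and Nr4a1 (-1.49). In tg/wt against WT the picture differed. There 7 of the 9 glucocorticoid genes fell and 0 rose (median -0.38), Mt2 (-0.56) and Cdkn1a (-0.43) among those that fell. Of the 11 immediate early genes 7 fell and 0 rose, beside 14.6% and 13.4% of all genes. Slide and genotype cannot be told apart in this comparison.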
